A study of Homo sapiens with 6 samples.

Results

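Broad H3K4me3 domains that carried no H3K27me3 were examined in endothelial cells derived from H1, an established human embryonic stem cell line. A domain needed an H3K4me3 island at least 4 kb wide (end minus start) in the library labelled Vc+ that overlapped, by at least 1 base, an island of the same minimum width in the library labelled Vc−. The Vc− island served as the anchor. It had to lie on chromosomes 1 to 22, within 1 kb of either end of a protein-coding gene, and to overlap no H3K27me3 island of either condition. This rule left 744 domains, which is 3.45% of the 21583 H3K4me3 islands on those chromosomes in the Vc− library. They touched an end of 948 protein-coding genes, which is 4.96% of the 19126 annotated there. The domains were chosen by island width and by H3K27me3 overlap, so both are given below as a description.

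The series held 6 samples, 3 per condition: an H3K4me3 library, an H3K27me3 library and an input for Vc+ and the same for Vc−. All samples were titled as GATA2+ endothelial cells in the Vc+ or the Vc− condition. The names of the deposited lists carry H1, and the sample titles do not. The labels gave no dose, time or passage. The series title connects the work with vitamin C, and the design text speaks of GATA2/eGFP+ and GATA2/eGFP− cells, which the sample titles do not separate. Island lists were used for 4 libraries, 1 per mark and condition, and the inputs were not used here. No replicate measured the spread, so no p-value was computed, and intervals on medians or shares cover counting over domains, genes or promoters. The name of each deposited list carried the opposite sign of Vc from the title of its sample. The groups follow the titles, and every direction between Vc+ and Vc− would turn round if the file names were right.

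H3K4me3 marks the nucleosomes around active and poised promoters, usually over a kilobase or so on either side of the transcript start. At a minority of genes it spreads into the gene body for several kilobases, and such broad domains have been described at genes that define a cell's identity and at tumor suppressor genes. H3K27me3 is laid down by the Polycomb repressive complex PRC2 and removed by the KDM6 demethylases, iron-dependent enzymes of a class whose activity vitamin C is known to support. Promoters that hold both marks are called bivalent and are common at developmental regulators.

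Promoter sequence was not used by the rule, and the stretches below are examples from the domains, with a contrast from outside them. Each is the 250 bases before the RefSeq transcript start, read on the strand of the gene in build GRCh38.p14, with every CpG dinucleotide in capitals. KDR (chr4:55125596-55125845, minus strand), which encodes the main VEGF receptor of endothelium, held 17 CpG. TAL1 (chr1:47232336-47232585, minus strand), which encodes a bHLH factor of endothelial and blood progenitors, held 24. HNRNPA2B1 (chr7:26200747-26200996, minus strand), which encodes an RNA-binding protein, also held 24. PTPRC (chr1:198638790-198639039, plus strand), which encodes the leukocyte antigen CD45 and had no H3K4me3 island in either library, held 1 and is shown as the contrast.
KDR: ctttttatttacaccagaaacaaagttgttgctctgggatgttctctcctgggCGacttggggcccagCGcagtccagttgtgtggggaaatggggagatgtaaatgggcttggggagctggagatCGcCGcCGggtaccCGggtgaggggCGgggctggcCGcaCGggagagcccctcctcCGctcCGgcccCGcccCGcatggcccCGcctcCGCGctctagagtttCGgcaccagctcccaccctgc
TAL1: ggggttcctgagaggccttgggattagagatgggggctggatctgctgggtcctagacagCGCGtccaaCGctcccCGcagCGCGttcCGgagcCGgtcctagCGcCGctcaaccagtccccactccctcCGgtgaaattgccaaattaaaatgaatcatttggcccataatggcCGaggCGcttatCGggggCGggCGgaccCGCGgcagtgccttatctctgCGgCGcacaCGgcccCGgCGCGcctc
HNRNPA2B1: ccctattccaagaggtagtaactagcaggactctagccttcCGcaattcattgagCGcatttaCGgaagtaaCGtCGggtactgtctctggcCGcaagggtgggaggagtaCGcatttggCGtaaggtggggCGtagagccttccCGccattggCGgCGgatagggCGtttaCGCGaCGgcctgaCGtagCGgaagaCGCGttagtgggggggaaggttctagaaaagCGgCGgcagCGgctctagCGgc
PTPRC: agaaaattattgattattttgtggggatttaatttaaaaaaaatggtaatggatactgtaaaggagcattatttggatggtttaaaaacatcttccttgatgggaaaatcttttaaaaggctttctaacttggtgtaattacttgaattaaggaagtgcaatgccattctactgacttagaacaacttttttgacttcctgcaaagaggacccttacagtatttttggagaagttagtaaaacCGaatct

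Over the 300 bases that reach 50 past the start, the ratio of observed to expected CpG was 0.696 at KDR, 0.967 at TAL1, 1.11 at HNRNPA2B1 and 0.122 at PTPRC. The CpG of KDR lay mostly in the part nearest the start. The TAL1 stretch also held 1 match to the letters AGATAA on either strand, and the KDR stretch held none.

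The labelled cell type was checked against marker genes. Of 8 endothelial markers, 8 in the Vc+ library and 7 in the Vc− library had H3K4me3 at a gene end (an island no farther than 1 kb away), and 4 of them (CDH5, KDR, FLT1 and TEK) lay at a domain of the set. VWF was the marker without an island at an end in the Vc− library. H3K27me3 stood at an end of 2 of the 8 in the Vc+ library, 5.8 kb wide at VWF and 1.6 kb at CDH5, and of 0 in the Vc− library. Of 3 blood markers, SPI1 alone had such an island in either library, and PTPRC and ITGA2B had none at an end. Of 3 pluripotency markers, POU5F1 and NANOG had none, and SOX2 had H3K4me3 of 2.8 kb (Vc+) and 1.6 kb (Vc−) with H3K27me3 of 33.8 kb (Vc+) and 40.2 kb (Vc−). The 3 neural markers all carried H3K27me3 beside H3K4me3, as did TWIST1 and PRRX1 of the 3 mesenchymal markers and NKX2-5 of the 2 cardiac ones. The mesenchymal marker COL1A1 went the other way, with H3K4me3 of 2.2 kb (Vc+) and 2.0 kb (Vc−) and no H3K27me3 in either library. The cardiac marker TNNT2 had neither mark in either library. Because these are bulk libraries, a mark in fewer cells and less of it per cell cannot be told apart.

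The VEGF receptor genes KDR and FLT1 held some of the widest domains, and the angiopoietin receptor gene TEK held a narrower one. KDR lay in an island of 13.2 kb in the Vc+ library (chromosome 4, 55113601 to 55126800), against 12 kb in the Vc− library (55114601 to 55126600). Most of it covered the gene body, with 12 kb (Vc+) and 11 kb (Vc−) downstream of the start. FLT1, the other main VEGF receptor gene, had 10.4 kb in the Vc+ library and 10.0 kb in the Vc− library. TEK, which encodes the angiopoietin receptor TIE2, had 7.2 kb (Vc+) and 6.8 kb (Vc−). Each of these receptor genes had a slightly wider island in the Vc+ library, by 2 to 6 windows of 200 bases. CDH5, which encodes the adherens junction protein VE-cadherin, went the other way with 4.8 kb (Vc+) and 5.8 kb (Vc−). The endothelial marker TIE1 was outside the set, with 3.6 kb (Vc+) and 4.4 kb (Vc−) at a gene end. At CDH5 an H3K27me3 island of 1.6 kb stood at the far end of the gene in the Vc+ library, 32.0 kb from the domain, and none stood there in the Vc− library.

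TAL1 showed how an outline can change by joining. Its island was 11.8 kb wide in the Vc+ library (chromosome 1, 47222001 to 47233800), against 5.4 kb at the start in the Vc− library (47227601 to 47233000). The Vc− list had a further island of 4.2 kb inside the gene, so its islands summed to 9.6 kb over the stretch that the Vc+ list gave as a single island. TAL1, KDR, FLT1, TEK and CDH5 were the 5 of 25 listed endothelial genes at a domain, a share of 20.0% (exact 95% interval 6.83 to 40.7%). Another 6 of the 25 were broad with H3K27me3 present.

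Arterial and Notch pathway genes were at a domain in 6 of 18 cases, or 33.3% (13.3 to 59.0%). Among ligands, JAG1 had 4.8 kb (Vc+) and 4.6 kb (Vc−), and EFNB2, the arterial ephrin, had 6.8 kb (Vc+) and 7.6 kb (Vc−). Among receptors, NOTCH1 had 5.2 kb (Vc+) and 4.8 kb (Vc−), and NRP1, a VEGF co-receptor, had 10.8 kb (Vc+) and 9.0 kb (Vc−). The Vc− pieces at NRP1 summed to 10.4 kb. HEY2, a Notch target that encodes an arterial transcriptional repressor, had 8.8 kb in both libraries with different edges, reaching 4.43 kb upstream of the start in the Vc+ library and 3.23 kb in the Vc− library. GJA4, which encodes connexin 37, had 6.6 kb (Vc+) and 6.2 kb (Vc−). Venous and lymphatic genes were represented by 3 of 9. These were NRP2 with 8.4 kb (Vc+) and 7.4 kb (Vc−), EPHB4, the venous receptor of EFNB2, with 5.8 kb (Vc+) and 5.4 kb (Vc−), and the apelin receptor gene APLNR with 4.4 kb in both.

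Regulators of blood formation were at a domain in 4 of 27 cases, or 14.8% (4.19 to 33.7%), an interval that includes the 4.96% of all genes. The 4 were TAL1, ETV6, BCL11A and RUNX1T1. ETV6, which encodes an ETS repressor needed for blood stem cells, had 5.8 kb (Vc+) and 5.4 kb (Vc−). BCL11A, known as the repressor of fetal globin, had an island with the same 7.0 kb outline in both libraries. RUNX1T1, the partner of RUNX1 in a leukemia fusion, had 13.0 kb (Vc+) and 7.8 kb (Vc−); the Vc− list split the stretch in pieces that summed to 14 kb. GATA2 and RUNX1 themselves were outside the set. GATA2 had an H3K4me3 island of 12 kb (Vc+) and 11.8 kb (Vc−), but H3K27me3 at an end of the gene measured 4.2 kb in the Vc+ library and 2.4 kb in the Vc− library. RUNX1 had no H3K4me3 island at either end of its span and an inner one of 10.6 kb (Vc+) and 10.2 kb (Vc−), with H3K27me3 islands inside the gene in both libraries.

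ETS factors, the family that binds endothelial and blood enhancers, had 6 of 25 genes at a domain, or 24.0% (9.36 to 45.1%). ETV1 had 7.8 kb (Vc+) and 8.0 kb (Vc−), ETS1 had 5.0 kb (Vc+) and 6.4 kb (Vc−), and ERF had 4.8 kb (Vc+) and 5.4 kb (Vc−). ELK3 had 5.4 kb (Vc+) and 4.6 kb (Vc−), and ELF1 had 5.2 kb (Vc+) and 4.2 kb (Vc−). Of 24 KLF and SP factors 4 were at a domain, or 16.7% (4.74 to 37.4%), an interval that includes the 4.96% of all genes. The widest was KLF6 with 7.0 kb (Vc+) and 6.0 kb (Vc−).

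Beyond vessel and blood genes, the domains covered large parts of lists with general functions. Splicing factors had the highest share, 19 of 33 or 57.6% (39.2 to 74.5%). Of the 19, 13 were wider in the Vc+ library, 1 equal and 5 narrower, beside 61.2% wider among all the domains and 54.2% among all H3K4me3 islands matched between the lists. HNRNPA2B1 shared a domain of 13.0 kb (Vc+) and 11.2 kb (Vc−) with its divergent neighbour CBX3, which encodes a heterochromatin protein. The Vc− list had a further island there and summed to 13.6 kb, which turns the direction. SRSF3, which encodes a serine- and arginine-rich splicing factor, had 11.2 kb (Vc+) and 7.0 kb (Vc−), and its Vc− pieces summed to 8.8 kb. QKI had 8.4 kb (Vc+) and 8.0 kb (Vc−), and HNRNPA1 had 7.6 kb (Vc+) and 7.4 kb (Vc−). HNRNPC went the other way with 4.6 kb (Vc+) and 6.4 kb (Vc−), its Vc+ pieces summing to 5.8 kb. By name alone, 18 of 37 SRSF and HNRNP genes were at a domain, or 48.6%.

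Immediate early and stress genes were at a domain in 17 of 35 cases, or 48.6% (31.4 to 66.0%). DUSP6, which encodes a phosphatase of ERK, had 9.8 kb in both libraries. BTG1, an antiproliferative gene, had 9.0 kb (Vc+) and 9.8 kb (Vc−). ZFP36L1 and ZFP36L2, which encode proteins that destabilise AU-rich mRNAs, had 9.2 and 8.6 kb in the Vc+ library, against 8.6 and 8.2 kb in the Vc− library. The median log2 ratio of widths over these 17 was 0, with 8 wider, 4 equal and 5 narrower in the Vc+ library.

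Signalling and structural genes followed. TGF-beta, BMP and WNT genes were at a domain in 12 of 31 cases, or 38.7% (21.9 to 57.8%). The type II BMP receptor gene BMPR2 had 8.0 kb (Vc+) and 6.4 kb (Vc−), the inhibitory SMAD gene SMAD6 had 8.6 kb (Vc+) and 7.8 kb (Vc−), and the BMP target ID3 had 6.8 kb (Vc+) and 6.2 kb (Vc−). CTNNB1, which encodes beta-catenin, had 6.6 kb (Vc+) and 7.0 kb (Vc−). Cytoskeleton and adhesion genes were at a domain in 10 of 25 cases, or 40.0%, with VIM at 7.4 kb (Vc+) and 7.6 kb (Vc−) and ITGB1 at 7.4 kb (Vc+) and 6.4 kb (Vc−). Tumor suppressors were at a domain in 7 of 28 cases, or 25%, including the acetyltransferase gene EP300 with 6.2 kb (Vc+) and 5.2 kb (Vc−). Cell cycle genes had 4 of 32, or 12.5% (3.51 to 29.0%), an interval that includes the 4.96% of all genes. Among them CCND1 had 7.2 kb in both.

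Chromatin modifiers, the class that writes and removes such marks, were at a domain in 13 of 43 cases, or 30.2% (17.2 to 46.1%). Of the 13, 10 were wider in the Vc+ library, 2 equal and 1 narrower, beside the 61.2% wider among all the domains. CHD2, a remodeler gene, had 10.0 kb (Vc+) and 6.8 kb (Vc−), and its Vc− pieces summed to 9.0 kb. ARID1A and ARID1B, which encode BAF subunits, had 8.2 and 7.8 kb in the Vc+ library, against 5.0 and 6.8 kb in the Vc− library, where the ARID1A pieces summed to 7.6 kb. JARID2, a PRC2 cofactor gene, had 6.4 kb in both. KDM6B, which encodes an H3K27 demethylase, touched a domain at each end. At its start the Vc+ island of 7.0 kb (chromosome 17, 7838401 to 7845400) and the Vc− island of 5.8 kb (7833601 to 7839400) met only at their edges, and the islands of each list summed to 11.2 kb (Vc+) and 10.0 kb (Vc−). At its other end a domain of 5.8 kb (Vc+) and 4.8 kb (Vc−) also held ends of TMEM88, NAA38 and CYB5D1, which made it the only domain with 4 genes.

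Regulators of heart and mesoderm also held wide domains. GATA6, a factor of heart and endoderm, had the widest domain with 1 island in each list, 14.2 kb in the Vc+ library (chromosome 18, 22165001 to 22179200) and 12.6 kb in the Vc− library (22165001 to 22177600). TBX20 had 7.8 kb (Vc+) and 4.4 kb (Vc−), and ISL1 had 7.2 kb (Vc+) and 5.0 kb (Vc−). The Vc− pieces summed to 5.8 kb at TBX20 and 8.8 kb at ISL1. These were 3 of 15 listed cardiac genes, or 20% (4.33 to 48.1%), and 7 of the 15 carried H3K27me3. With domains within 5 kb of H3K27me3 left out, GATA6 alone of these remained, and the log2 of the list's share over that of all genes was 0.47, against 2.01 by the rule as stated. Mesenchymal genes had 3 of 21, or 14.3% (3.05 to 36.3%). The widest was ZEB2 at 8.2 kb (Vc+) and 7.4 kb (Vc−), and its Vc− pieces summed to 8.4 kb, which turns the direction. COL1A2 had 4.8 kb (Vc+) and 4.4 kb (Vc−). Of the list on vitamin C, HIF and hypoxia, 2 of 20 were at a domain, or 10% (1.23 to 31.7%). HIF1A had 7.0 kb (Vc+) and 5.2 kb (Vc−), and the glucose transporter gene SLC2A3 had 4.4 kb (Vc+) and 4.2 kb (Vc−). Housekeeping genes had 3 of 19, or 15.8% (3.38 to 39.6%), among them TBP with 4.4 kb (Vc+) and 4.2 kb (Vc−). The intervals of the cardiac, mesenchymal, vitamin C and housekeeping lists all include the 4.96% of all genes.

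Several lists had few or no genes at a domain. None of 16 pluripotency genes was at a domain, which allows a share of up to 20.6% (exact 95% interval), and none of 22 neural ectoderm genes was, which allows up to 15.4%. Of the 22 neural ectoderm genes 20 had H3K4me3 at an end in both libraries and 20 carried H3K27me3. No mitochondrial ribosomal protein gene was at a domain among 74, which allows up to 4.86%. No protocadherin of the clusters was at one among 53, which allows up to 6.72% and so includes the 4.96% of all genes. No olfactory receptor was at one among 389, which allows up to 0.944%, but only 6 of the 389 had H3K4me3 at an end in both libraries. ZNF genes had 9 of 498, or 1.81% (0.83 to 3.40%), below the 4.96% of all genes. Cytosolic ribosomal protein genes had 3 of 90, or 3.33%, with an interval of 0.693 to 9.43% that includes the share of all genes, and their share was above it with a 3 kb minimum or with islands under 1 kb apart merged. Potassium channels had 1 of 81, or 1.23% (0.0313 to 6.69%), and proteasome subunits 2 of 38, or 5.26% (0.644 to 17.7%). The intervals of both lists include the share of all genes. Solute carriers had 15 of 365, or 4.11%, near the share of all genes. HOX genes had 3 of 39, or 7.69% (1.62 to 20.9%), all in a single domain, while 36 of the 39 carried H3K27me3. Over the 19 named lists, 115 of 452 genes were at a domain, or 25.4%, and 17 lists had a share above that of all genes. Of these, the exact intervals of the blood, KLF and SP, cell cycle, mesenchymal, cardiac, housekeeping and vitamin C lists included the 4.96% of all genes. Among the 13381 genes with H3K4me3 at an end in both libraries, 7.08% were at a domain.

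**Figure D1:**
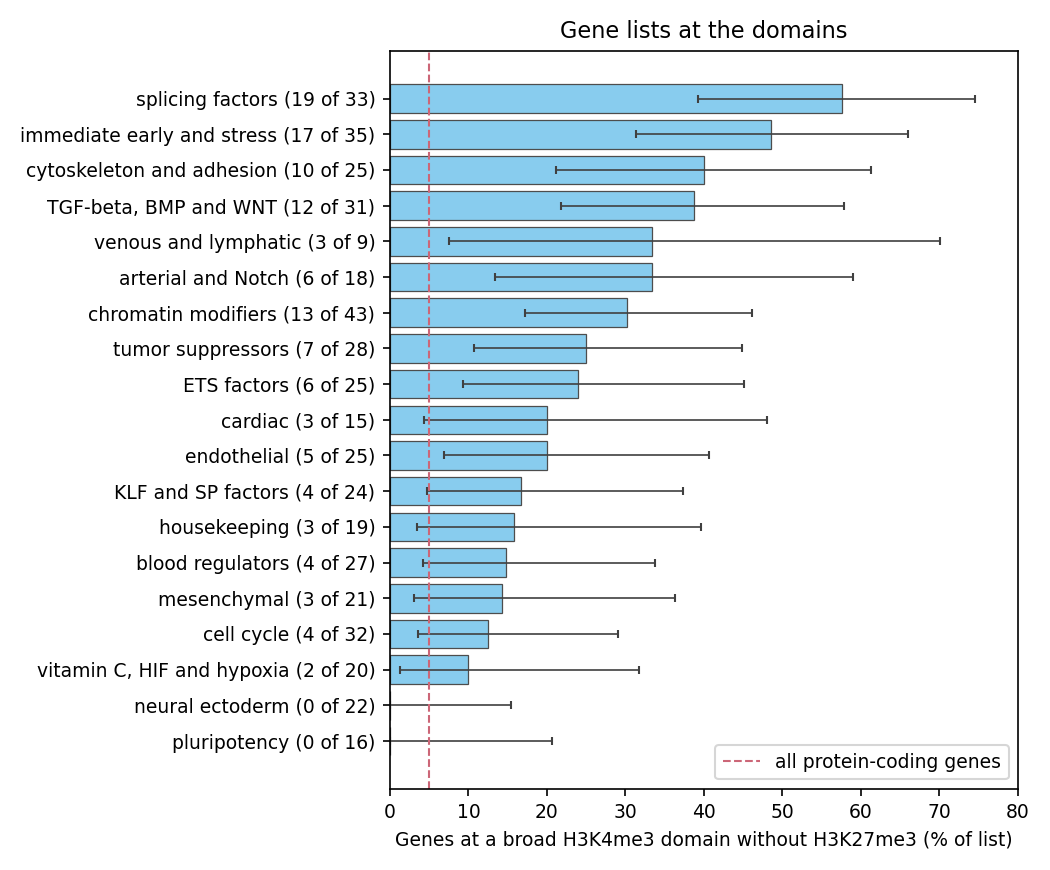
Share of each named gene list that lay at a broad H3K4me3 domain without H3K27me3, in percent of the listed genes found on chromosomes 1 to 22, with exact 95% intervals for counting error as whiskers and the counts in the labels. Splicing factors reached 57.6% and immediate early genes 48.6%, while neural ectoderm and pluripotency genes were at 0; the dashed line marks the 4.96% of all protein-coding genes.

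Clustered histone genes were a special case, since 31 of 70 were at a domain, or 44.3%, but in only 14 domains. On chromosome 6, 22 of 55 such genes lay in 10 domains of 4.4 to 7.4 kb (Vc+) and 4.4 to 6.4 kb (Vc−). On chromosome 1, 8 of 13 lay in 3 domains of 5.2 to 6.8 kb (Vc+) and 4.4 to 7.2 kb (Vc−). H4C16 on chromosome 12 had a domain of 9.0 kb (Vc+) and 8.8 kb (Vc−). These genes are near-identical copies and sit close together, so how the authors' alignment placed their reads is uncertain, and some domains there spanned several short genes. In all, 78 genes lay wholly inside a domain, in 64 domains, among them DUSP6, BTG1, ID3 and APLNR from the lists above.

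The 744 domains had a median width of 5.4 kb in the Vc+ library (95% interval 5.2 to 5.6 kb) and 5.0 kb in the Vc− library (5.0 to 5.2 kb). All H3K4me3 islands had medians of 1.8 kb (Vc+) and 1.6 kb (Vc−). Widths reached 21.4 kb (Vc+) and 12.6 kb (Vc−). At 10 kb or more there were 22 domains in the Vc+ library and 10 in the Vc− library, and at 8 kb or more 81 and 45. Together the domains covered 4.36 Mb (Vc+) and 4.05 Mb (Vc−), which was 9.30% and 9.63% of the H3K4me3 length in each list. The deposited island score stood at its top value of 1000 in 46.2% of domains (Vc+) and 53.6% (Vc−), against 2.66% (Vc+) and 3.78% (Vc−) of all H3K4me3 islands. Among the 118 broad islands with H3K27me3 the share was 40.7% (Vc+, 31.7 to 50.1%) and 39.0% (Vc−, 30.1 to 48.4%). A high score was thus common in broad islands of both kinds, and the part of width in it was not tested. The score is the authors' own and was read within each list only.

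The widest domains by the mean of both widths belonged to HOXB3 with HOXB5 and HOXB6, GATA6, KDR, HNRNPA2B1 with CBX3, IGF2BP3, PCDH7, IGF2BP1, HAPLN1, RUNX1T1, FLT1, SHC1 with CKS1B, and ZMYND8. IGF2BP3 and IGF2BP1, which encode mRNA-binding proteins of fetal tissues, had 12.2 and 11.8 kb in the Vc+ library, against 11.6 and 9.6 kb in the Vc− library. HAPLN1, which encodes a link protein of the hyaluronan matrix, was narrower in the Vc+ library, with 9.2 kb against 11.6 kb in the Vc− library. PCDH7, a protocadherin outside the clusters, had 11.4 kb (Vc+) and 10.4 kb (Vc−), with a Vc− sum of 11 kb. ZMYND8, which encodes a chromatin reader, had 10.0 kb (Vc+) and 10.2 kb (Vc−), while its islands summed to 13.6 kb (Vc+) and 11.2 kb (Vc−), which turns the direction.

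Between the libraries 455 of the 744 domains were wider in the Vc+ library, or 61.2% (57.5 to 64.7%), 89 were equal and 200 were narrower. Over all 17815 H3K4me3 islands that matched 1 to 1 between the lists, 54.2% were wider in the Vc+ library. The median log2 ratio of widths, Vc+ over Vc−, was 0.07 for the domains (0.06 to 0.10), a ratio of 1.05, and 0.12 for all matched islands. Past 1.25-fold, 96 domains were wider in the Vc+ library, or 12.9%, against 27% of all matched islands, and 17 were narrower, or 2.28%, against 10.6%. The rule sets a floor on both widths, and a step of 0.2 kb is a smaller ratio of a wide island, so these shares are not on equal terms. The 118 broad islands with H3K27me3, held to the same floor, had a median log2 ratio of 0.00 and 49.2% wider in the Vc+ library (39.8 to 58.5%). Total H3K4me3 length was itself larger in the Vc+ list, 46.8 Mb against 42.0 Mb in the Vc− list. Read depth was not given in the files, and its part in island width was not tested.

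**Figure D2:**
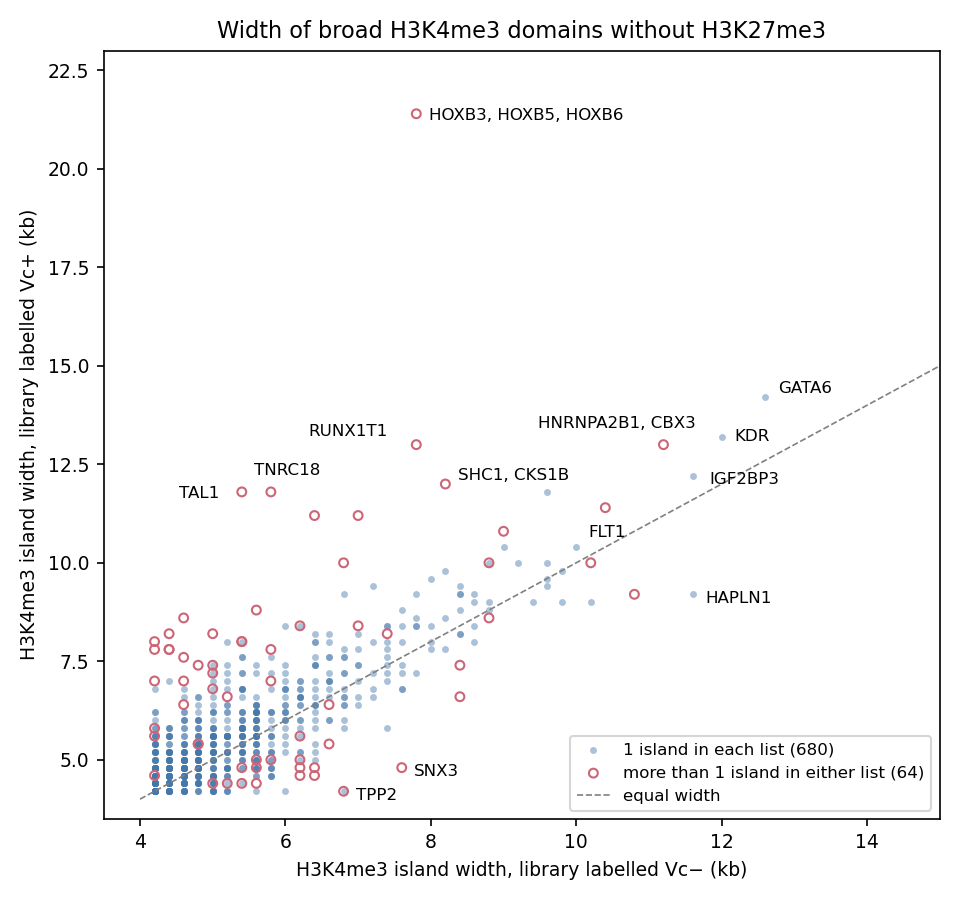
Width in kb of the 744 domains in the library labelled Vc+ (vertical axis) against the library labelled Vc− (horizontal axis), with a dashed line at equal width; the axes differ in range. Filled points are the 680 domains with 1 island in each list, and open points the 64 where either list had more than 1 over the same stretch. The points farthest above the line, HOXB3 with HOXB5 and HOXB6, TAL1, TNRC18 and RUNX1T1, are open.

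Outlines overlapped closely, with a median of 0.871 for shared over combined length and a 10th percentile of 0.735. Both edges were identical at 29 domains and a single edge at 257. Of the 744, 719 met a single Vc+ island and 25 met a pair, and 44 were joined to another Vc− island by the Vc+ list. The largest ratios came from such joins. The HOXB domain had 21.4 kb (Vc+) and 7.8 kb (Vc−), and the Vc− list had 3 islands there that summed to 19.2 kb. TNRC18 had 11.8 kb (Vc+) and 5.8 kb (Vc−), with a Vc− sum of 10.8 kb, and RBM15, a gene of the RNA methylation machinery, had 8.0 kb (Vc+) and 4.2 kb (Vc−), with a Vc− sum of 7.0 kb. HS3ST3B1 had 8.6 kb (Vc+) and 4.6 kb (Vc−), with a Vc− sum of 7.8 kb, and ADGRA2, which encodes a receptor for brain vessel growth, had 8.2 kb (Vc+) and 4.4 kb (Vc−), with a Vc− sum of 8.0 kb.

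The smallest ratios were partly splits in the Vc+ list. SNX3 had 4.8 kb (Vc+) and 7.6 kb (Vc−), while its Vc+ pieces summed to 8.4 kb. HAPSTR1 had 4.2 kb (Vc+) and 6.8 kb (Vc−), with a Vc+ sum of 5.4 kb, and SLC3A2 had 4.6 kb (Vc+) and 6.2 kb (Vc−), with a Vc+ sum of 5.4 kb. TPP2, with 4.2 kb (Vc+) and 6.8 kb (Vc−), and NMRK1 with OSTF1, with 4.2 kb (Vc+) and 6.0 kb (Vc−), had a single island in each list. With all overlapping islands of both lists summed, the median log2 ratio stayed at 0.07, and 72 domains were past 1.25-fold wider and 13 past 1.25-fold narrower in the Vc+ library.

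At the width limit, 132 domains had their narrower outline at 4.2 kb, the smallest that the rule keeps when both end bases are counted, and 134 islands with their narrower outline at 4.0 kb were left out. GADD45A, a DNA damage gene, was just inside with 4.2 kb in both libraries, as was the domain at EXTL2 and SLC30A7. HOXB2, with 8.0 kb (Vc+) and 4.0 kb (Vc−), and the Notch target HES1, with 7.2 kb (Vc+) and 4.0 kb (Vc−), were just outside.

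Position relative to the transcript start was not part of the rule, which used either gene end. A RefSeq start lay inside 602 of the domains, and 725 genes had their start there. Of the 602, 486 held a single start and 116 held more, or 19.3%, against 5.31% of 2089 narrow islands with a start (narrow islands were at most 2 kb wide in both lists and free of H3K27me3). A longer stretch has more room for starts, and width chose both groups, so these shares are not on equal terms. The part of length was not tested. Divergent pairs of starts were found in 88 domains, HNRNPA2B1 with CBX3 and SHC1 with CKS1B among them. Domains with more than 1 start had the same medians as those with a single start, 5.4 kb (Vc+) and 5.0 kb (Vc−). Of the 142 domains without a start, 127 had a gene with no entry in the promoter table.

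In 480 domains with a single start inside both outlines, the marked stretch ran mainly into the gene. The median reach downstream of the start was 3.87 kb in the Vc+ library (3.70 to 4.0 kb) and 3.60 kb in the Vc− library (3.49 to 3.73 kb). Upstream it was 1.48 kb (Vc+, 1.39 to 1.56 kb) and 1.39 kb (Vc−, 1.33 to 1.51 kb). The downstream side was the longer in 88.8% of domains (Vc+) and 88.1% (Vc−). Narrow islands were also longer downstream in 83.0% (Vc+) and 80.5% (Vc−) of 1944 cases, with medians of 0.991 kb (Vc+) and 0.928 kb (Vc−) downstream. In the 63 broad islands with H3K27me3 and a single start the share was 77.8% (Vc+) and 79.4% (Vc−). The downstream edge lay farther out in the Vc+ library at 276 of the 480 domains, was equal at 71 and nearer at 133, a mean difference of 0.304 kb. The upstream edge lay farther out at 203, was equal at 139 and nearer at 138, a mean difference of 0.102 kb.

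**Figure D3:**
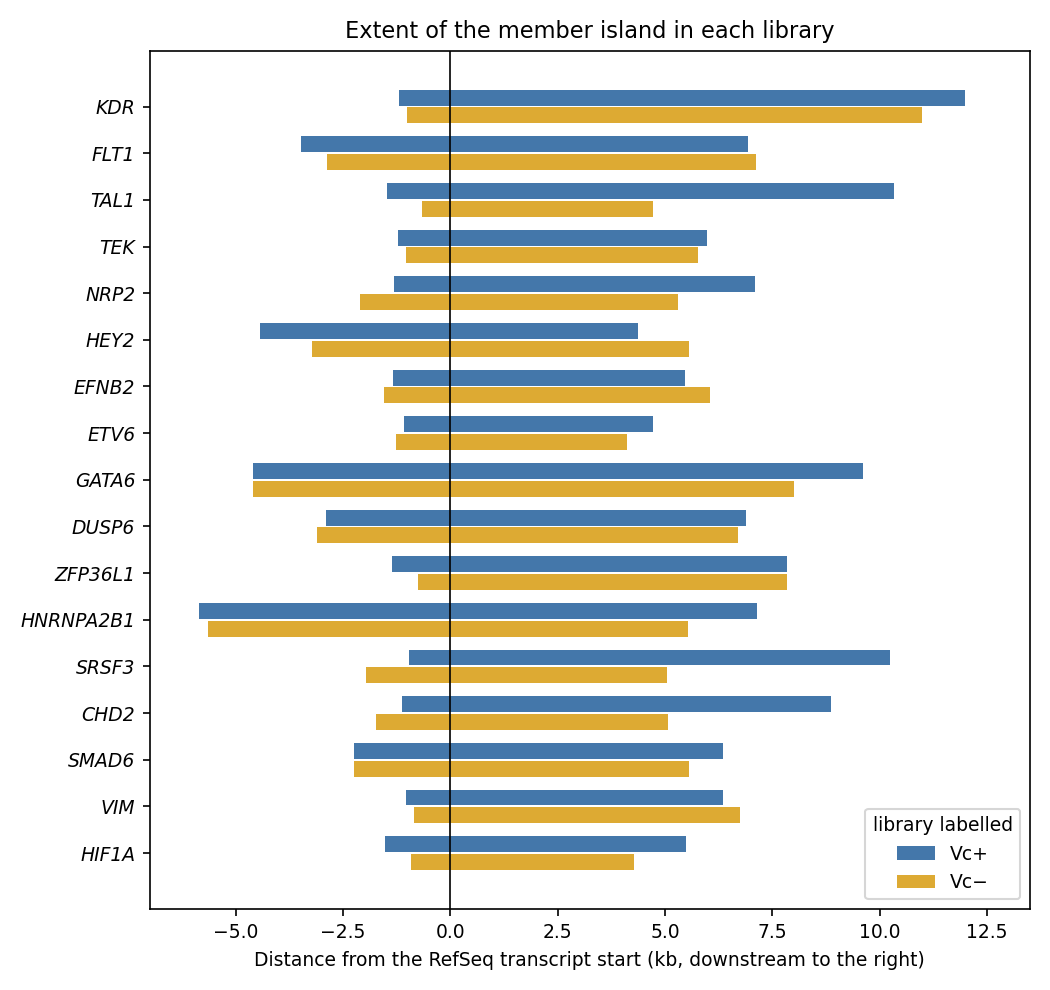
Extent of the member island around the RefSeq transcript start for 17 named genes, in kb with downstream to the right, the Vc+ library above the Vc− library for each gene. Most bars reach farther to the right of the start than to the left, as at KDR with 12 kb (Vc+) and 11 kb (Vc−) downstream, and HEY2 in the Vc+ library and HNRNPA2B1 in the Vc− library are close to even on both sides.

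Genes with their start in a domain were longer than those at narrow islands. They had a median span of 33.7 kb (29.8 to 39.0 kb), against 25.8 kb (23.8 to 27.2 kb) at narrow islands and 25.9 kb over all genes in the promoter table. Genes in broad islands with H3K27me3 had a median of 42.4 kb, with a wide interval of 13.8 to 79.8 kb that overlaps that of the domains. By chromosome, the share of protein-coding genes at a domain was highest on chromosome 6, at 7.72%, where the histone cluster lies, and lowest on chromosome 20, at 2.79%, and chromosome 19, at 2.83%.

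Few domains had H3K27me3 close by, outside the stretch that the rule required to be clear of it. An H3K27me3 island stood within 10 kb of 32 domains in the Vc+ library, or 4.3%, and of 23 in the Vc− library, or 3.09%. Counting either library, 5.11% of domains had one within 10 kb and 16.9% within 50 kb, against 11.6% and 35.3% of the narrow islands, which also overlapped none. A domain had to be clear over a longer stretch than a narrow island, so these shares and the distances below are not on equal terms. The part of that longer clear stretch was not tested. The median distance to the nearest H3K27me3 island was 180 kb (Vc+) and 218 kb (Vc−) for the domains and 95.6 kb (Vc+) and 117 kb (Vc−) for the narrow islands. The H3K27me3 lists themselves differed in size, with 9534 islands (Vc+) and 8893 (Vc−) and a total of 51.1 Mb (Vc+) and 40.2 Mb (Vc−), and their part in these distances was not tested.

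Within 5 kb there were 19 domains with an H3K27me3 island in the Vc+ library and 9 in the Vc− library. Distances were taken from the Vc− outline. FOXO3, a forkhead gene, had one 0.2 kb away in the Vc+ library, against 375.6 kb in the Vc− library. TNRC18 had one 0.8 kb (Vc+) and 463.8 kb (Vc−) away, and the domain at the far end of KDM6B had one directly beside it (Vc+) and 57.2 kb away (Vc−). TBX20 had one 3.8 kb (Vc+) and 61.6 kb (Vc−) away. MARCKS, named after its values were seen, was the opposite case, with 1354.4 kb (Vc+) and 0.6 kb (Vc−). ISL1 and ACTG1 had one nearby in both, 1.2 and 2.2 kb away in the Vc+ library and 0.6 and 1.4 kb away in the Vc− library. Since the rule tested overlap with the Vc− outline, the wider Vc+ outline itself met H3K27me3 at 5 domains: ANXA2R, FOXO3, TNRC18, HS3ST3B1 and the HOXB domain. These 5 are named after their values were seen.

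Promoters inside the domains were rich in CpG. The ratio of observed to expected CpG over 300 bases had a median of 0.870 (0.854 to 0.888) for the 725 promoters in a domain. It was 0.864 (0.779 to 0.899) for 73 promoters in broad islands with H3K27me3, 0.817 (0.809 to 0.824) for 2203 in narrow islands, 0.767 for all 15101 in the table and 0.235 for 4355 genes with no H3K4me3 island in either library. The intervals of both kinds of broad island overlap, and that of the domains lies above that of the narrow islands. GC content followed the same order, with medians of 66.3% in domains, 66.0% in broad islands with H3K27me3, 64.7% in narrow islands and 50.3% with no H3K4me3. KDR, at 0.696, was below the median of the set, and HNRNPA2B1, at 1.11, was above its 90th percentile of 1.08.

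**Figure D4:**
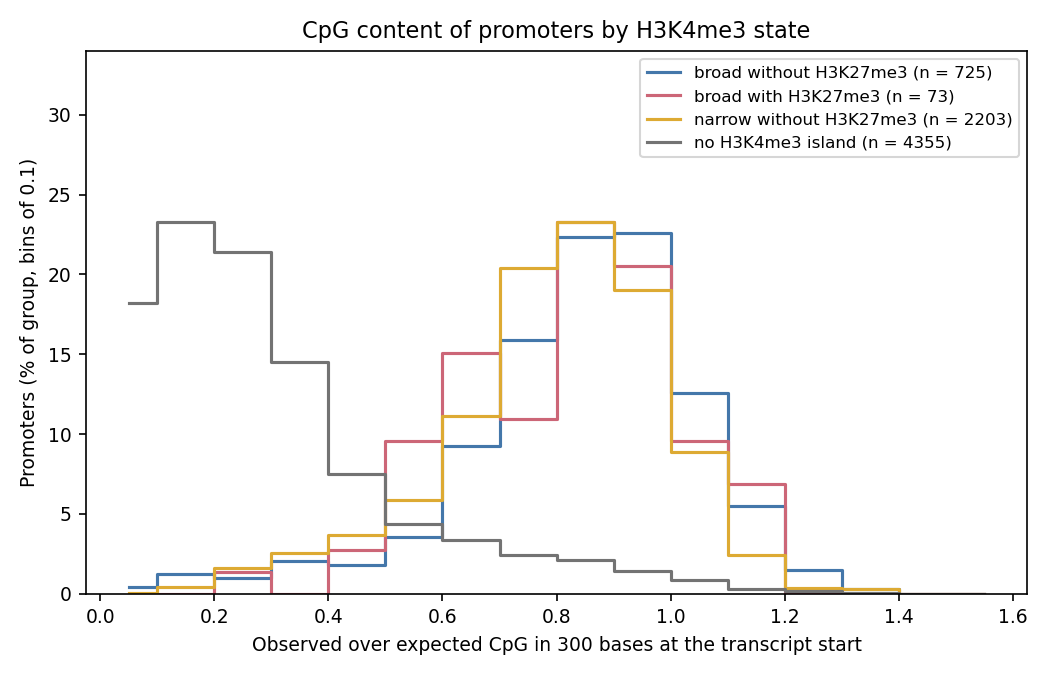
Distribution of the observed over expected CpG ratio in the 300 bases at the transcript start, in percent of promoters per bin of 0.1, for genes in broad domains without H3K27me3, in broad islands with H3K27me3, in narrow islands, and with no H3K4me3 island. The groups with H3K4me3 peak between 0.8 and 1.0, and the group without it lies below 0.4 for the most part.

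Short motifs were counted on both strands of the same 300 bases, as matches of letters. The GC box GGGCGG, bound by SP and KLF factors, was present in 72.4% of domain promoters, 75.3% of those in broad islands with H3K27me3, 71.9% in narrow islands and 58.9% of all promoters. The ETS letters CCGGAAG were present in 14.6% of domain promoters (12.1 to 17.4%), against 23.5% in narrow islands (21.8 to 25.3%), 4.11% in broad islands with H3K27me3 and 14.4% of all promoters. The TATA letters TATAAA were present in 8.69% of domain promoters (6.74 to 10.98%), against 4.40% in narrow islands (3.58 to 5.35%) and 9.71% of all promoters. Broad islands with H3K27me3 were close to the domains in this, at 9.59% (3.94 to 18.8%). Compared with narrow islands, domain promoters thus held the ETS letters less often and the TATA letters more often, by intervals that do not overlap. Each promoter was counted singly, and 29 of the 725 domain promoters belonged to clustered histone genes, which shared few domains. The part of these 29 in the shares was not tested. The GATA letters AGATAA, at 4.69% against 4.77%, and the AP-1 letters TGANTCA, at 3.31% against 3.40%, were at nearly the same share in domain and narrow promoters. The YY1 letters AAGATGG were present in 6.48% of domain promoters (4.80 to 8.53%), 7.26% of narrow ones and 0 of 73 in broad islands with H3K27me3. That 0 allows a share of up to 4.93%, so its interval overlaps that of the domains. The E-box CACGTG, the CRE TGACGTC, the NRF1 letters GCATGCG and the CCAAT box had intervals that overlapped between domain and narrow promoters.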

How the data were processed

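H3K4me3 and H3K27me3 were measured by chromatin immunoprecipitation and sequencing, 1 library per mark and condition. The deposited lists give chromosome, start, end and a score per island. The deposited score has no header or stated unit and was used within a list only. Bowtie2, SICER and deepTools, with hg38 and GRCh38, are named in the submitters' processing notes without version, setting or role. The extraction text names an antibody for H3K27me3 alone. Starts count from 0 and ends are the last base, so coordinates are printed with 1 added and widths count both end bases, in steps of 200 bases. Where several Vc+ islands overlapped, the widest was paired with the Vc− island. Genes, starts, strand and promoters came from RefSeq tables of GRCh38.p14, which hold a promoter for 15101 of 19126 protein-coding genes. Intervals are Clopper-Pearson for shares and order-statistic for medians, at 95%. Widths and motifs were handled with Python 3.11.15, pandas 2.3.3 and scipy 1.17.1. The rule recovered 200 of 200 domains planted among 400 simulated regions, and bedtools 2.31.1 returned the same 744.

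The domains and the gene lists were chosen with earlier results of these data known. Named genes were the 12 widest domains, the 6 largest and 6 smallest width ratios, list members at a domain (all of the endothelial, arterial, blood and ETS lists, up to 4 of the others), the islands nearest the width limit, GATA2, RUNX1 and the domain with most genes; others are named as counts or markers. Some genes that this rule takes are not reported here.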

Additional observations from a re-analysis of the deposited data

How the results depend on the processing

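No paired analysis was possible because each mark and condition had 1 library, and for the same reason no replicate could be left out. With a minimum of 3 kb there were 1789 domains at 2268 genes, with median widths of 4.4 kb (Vc+) and 4.0 kb (Vc−). With 6 kb there were 132 domains at 173 genes, with medians of 8.0 kb (Vc+) and 7.4 kb (Vc−), 65.9% wider in the Vc+ library and a median CpG ratio of 0.839. With the same number of widest islands taken from both lists, the median log2 width ratio was 0.12 and 69.4% were wider in the Vc+ library. Keeping islands of exactly 4 kb, chosen after seeing the data, gave a Vc− median of 4.8 kb. The log2 of a list's share over that of all genes changed sign for cytosolic ribosomal proteins with 3 kb (0.98) and with islands under 1 kb apart merged (0.20), for HOX with 3 kb (-0.21), and for the proteasome with 3 kb (-0.17), a gene end within 5 kb (-0.041), the same number of islands (-0.66) and exactly 4 kb kept (-0.15). Lists left with 0 genes at a domain have no such value. These were HOX with no H3K27me3 within 5 kb, the Vc+ list as anchor, 50% overlap, merged islands or a start inside the domain; KLF and SP, vitamin C, ribosomal, potassium channel and proteasome genes with 6 kb, where 15 and not 17 named lists were above the share of all genes; potassium channels also with no H3K27me3 within 5 kb or a start inside; and the proteasome with a start inside. The limits for a single list are its exact interval, which is wide for short lists: the cardiac value of 0.47 with no H3K27me3 within 5 kb was inside it. Another 78 values for the counts, widths, number of lists and CpG under the alternatives tried moved by less than the limits set for them, as did 289 for single lists; 15 single-list values moved further without changing sign. Read depth is not in the files, so how far depth sets island width could not be examined.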

Other observations

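Another 115 broad H3K4me3 islands met every part of the rule except a protein-coding gene end within 1 kb. Of these, 96 lay inside a protein-coding gene and 40 lay at the end of a long non-coding RNA gene. Another 5 lay outside protein-coding genes and had no end of any other type of annotated gene nearby. The genes below were chosen after their values were seen. Several regulators of endothelium and blood were among them: ERG, an ETS factor of endothelium, had 12 kb (Vc+) and 9.0 kb (Vc−), GATA3 had 11 kb (Vc+) and 12 kb (Vc−), and LMO2, which encodes a partner of TAL1, had 5.6 kb (Vc+) and 7.0 kb (Vc−). EGFL7, an endothelial gene that hosts MIR126, had 8.6 kb (Vc+) and 4.8 kb (Vc−). The histone demethylase family gene JMJD1C had 8.8 kb (Vc+) and 5.2 kb (Vc−), and SETD1B, which encodes an H3K4 methyltransferase, had 9.2 kb (Vc+) and 8.4 kb (Vc−). The non-coding RNA gene MALAT1 had 11.6 kb (Vc+) and 11 kb (Vc−), its neighbour NEAT1 had 7.4 kb (Vc+) and 6.0 kb (Vc−), and the miRNA host MIR17HG had 4.2 kb (Vc+) and 4.8 kb (Vc−). LIN28B, a listed pluripotency gene, had an inner island of 9.2 kb (Vc+) and 8.4 kb (Vc−), and DPPA4 had one of 4.4 kb (Vc+) and 4.2 kb (Vc−), so the count of 0 for that list holds for gene ends and not for the whole of these genes.

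Hairpins of 25 miRNAs lay inside the Vc− outline of a domain, and those named here were chosen after this was seen. MIR15B and MIR16-2 lay in the domain of SMC4 and IFT80, which was 6.4 kb wide (Vc+) and 7.0 kb (Vc−). MIR4674 lay in that of NOTCH1, MIR3193 in that of ID1 and MIR1281 in that of EP300.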
